A study of Mus musculus with 5 samples.

Results

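The genes described here encode the catalytic, Pcgf and variant-specific subunits of Polycomb repressive complex 1 (PRC1). They are 10 of the 21631 protein-coding genes of the mouse annotation used, and were taken by name. Ring1 and Rnf2 serve all forms of the complex, Bmi1 and Pcgf2 stand for canonical PRC1, and Pcgf1, Pcgf3, Pcgf5, Pcgf6, Rybp and Kdm2b stand for variant PRC1. Their loci were examined for 2 histone marks in basal epidermal progenitors sorted from adult back skin (control genotype, postnatal day 71). All mice carried the reporters K14-RFP and K10-H2B-GFP, driven by keratin promoters of basal and suprabasal cells, and the gate took Sca1(+), RFP(high), GFP(-) cells. Chromatin was immunoprecipitated for H2AK119ub or for H3K27me3, with 2 libraries per mark and 1 input library. How many mice were pooled was not stated.

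PRC1 is a histone ligase. A Ring protein (Ring1 or Rnf2) paired with 1 Pcgf protein attaches ubiquitin to histone H2A, giving H2AK119ub, while the separate complex PRC2 makes H3K27me3. Canonical complexes contain Bmi1 or Pcgf2 together with a Cbx protein that binds H3K27me3. Variant complexes contain Rybp or its relative Yaf2 in place of Cbx and are known to make most of the H2AK119ub in embryonic stem cells. In the epidermis, Polycomb complexes are known to keep genes of other lineages, such as Merkel cell genes, silent.

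Each mark is represented by a single deposited list, with 33155 called regions for H2AK119ub and 15102 for H3K27me3, giving mm10 positions and no height, score or replicate. Read depth and the spread between libraries are therefore unknown, no test was made, and every value below is a description of these lists. Sequence outside the lists may still be modified at levels too low for the unknown calling threshold. As a check of the labelled cell type, H3K27me3 lay within 1 kb of the start site at 0 of 3 basal keratinocyte markers for which a start site was annotated, against 21.2% of all protein-coding genes. Within the gene body plus 20 kb, 3 of 7 basal markers had H3K27me3, against 44.5% of all protein-coding genes. The window count was 2 of 5 for suprabasal keratinocytes, 2 of 5 for melanocytes and 4 of 4 for Merkel cells. It was 3 of 4 for immune cells, 4 of 4 for fibroblasts and 2 of 3 for endothelium. The count at start sites was 1 of 3 for suprabasal keratinocytes (Krt10), 0 of 3 for melanocytes, 4 of 4 for Merkel cells, 2 of 4 for immune cells, 3 of 3 for fibroblasts and 1 of 1 for endothelium. H2AK119ub lay within 1 kb of the start at 3 of 3 basal markers as well as at 4 of 4 Merkel cell markers, and did not tell them apart. These marks do not measure expression, so the share of other cells in the sort was not tested.

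Every gene of the group had H2AK119ub nearby, and only some had H3K27me3. Within the gene body plus 20 kb on either side, 10 of 10 had an H2AK119ub region, against 71.8% of all protein-coding genes. H3K27me3 regions were found at 6 of 10, against 44.5% of all protein-coding genes. Both marks together were found at the same 6, against 40.3% of all protein-coding genes, and H2AK119ub without H3K27me3 at 4 (Rnf2, Pcgf2, Pcgf3 and Kdm2b), against 31.5%. The share of the window under H2AK119ub regions had a median of 51.9% over the 10 genes, with a range of 4.55 to 100%, and a median of 22.1% over all protein-coding genes. The share under H3K27me3 regions had a median of 8.62%, with a range of 0 to 86.4%, against a median of 0% over all protein-coding genes. The H2AK119ub count fell to 7 of 10 over gene bodies alone (without Rnf2, Pcgf3 and Pcgf6), against 57.2% of all protein-coding genes. The H3K27me3 values also depended on the window. Over gene bodies alone the count was 2 of 10, against 25.7% of all protein-coding genes, and with 5 kb on either side 3 of 10, against 32.6%, so that the group then stood slightly below the background. With 50 kb it was 9 of 10, against 57.2%. The median H3K27me3 share of the 10 genes was 0% over gene bodies alone, with 5 kb on either side, and over the 20 kb window when only regions of at least the list's median width were kept, as it was over all protein-coding genes in each of these settings.

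**Figure D1:**
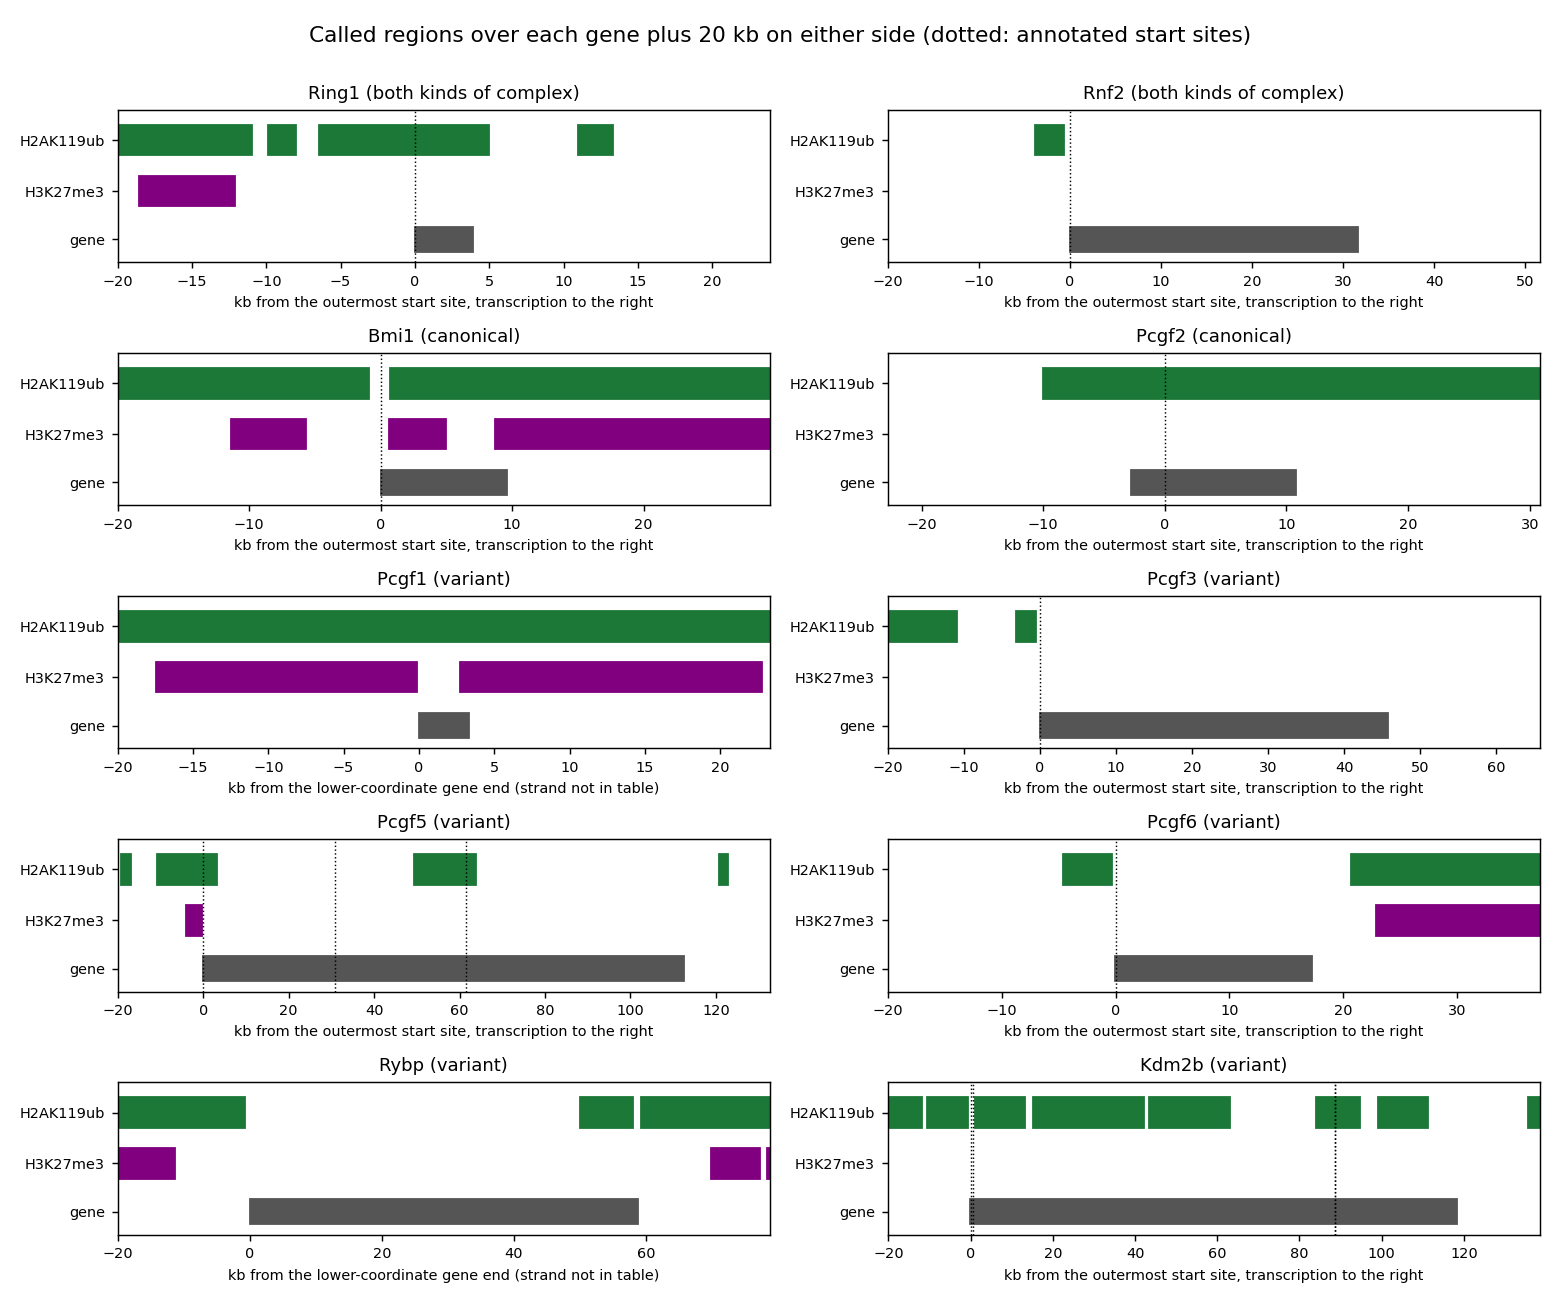
Called H2AK119ub (green) and H3K27me3 (purple) regions over each of the 10 genes (grey bar) plus 20 kb on either side, with positions in kb. Dotted lines are annotated start sites; Pcgf1 and Rybp are drawn from their lower-coordinate end. H2AK119ub is present in all 10 panels and H3K27me3 in 6, mostly outside the gene body.

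The Ring genes, which encode the ligases themselves, differed from each other. Ring1 lies on chromosome 17 from 34020792 to 34024680 on the minus strand. An 11.4 kb H2AK119ub region from 34019688 to 34031121 covered 100% of its 3.89 kb body and its start site, and ran on over H2-Ke6 and into Slc39a7, the neighbours on its upstream side. H2AK119ub covered 56.3% of the Ring1 window in 4 regions. The H3K27me3 region of that window, 6.48 kb wide, lay 12.1 kb upstream of the Ring1 start, over Rxrb and the start of Col11a2, a retinoid receptor gene and a collagen gene. It did not reach Ring1. Rnf2, on chromosome 1 from 151469398 to 151500991 on the minus strand, had the lowest coverage of the group, 4.55%. Its only region was a 3.25 kb stretch of H2AK119ub from 151501591 to 151504844, which ended 600 bp before the start site. No H3K27me3 region lay within 44.2 kb of the Rnf2 start.

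The canonical genes Bmi1 and Pcgf2, close relatives, both lay in wide H2AK119ub domains, and Bmi1 alone of the pair had H3K27me3. Bmi1 lies on chromosome 2 from 18677018 to 18686629 on the plus strand. A 96.1 kb H2AK119ub region upstream (18580049 to 18676144, the 425th widest of the list) and a 47.7 kb region downstream (18677698 to 18725376) covered 96.9% of its window. The upstream region overlapped the neighbour Commd3, and the downstream region reached over Gm46725 into Spag6. H3K27me3 covered 62.4% of the window in 3 regions of 5.70, 4.30 and 22.2 kb. The 4.30 kb region lay inside Bmi1, from 0.667 kb to 4.97 kb after its start. The 22.2 kb region began within the gene's last kilobase and ran over Gm46725 into Spag6. Pcgf2 lies on chromosome 11 from 97688821 to 97702434 on the minus strand. A single 45.7 kb H2AK119ub region from 97663929 to 97709653, shared with Cisd3, Psmb3 and Mllt6, covered 100% of its body and 76.2% of its window. No H3K27me3 region lay in the Pcgf2 window. The nearest on the downstream side lay near Epop, a PRC2 accessory gene 59.1 kb away, and ended 45.8 kb from the body of Pcgf2.

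Among the variant Pcgf genes, Pcgf1 had the highest coverage by both marks, and the others were covered in part. Pcgf1, whose protein works in the complex with Kdm2b and Bcor, lies on chromosome 6 from 83077552 to 83080855. It sat in a 101 kb H2AK119ub region (83002511 to 83103803, the 384th widest) that covered 100% of its window. H3K27me3 covered 86.4% of the window in regions of 17.3 and 20.1 kb. The first held the neighbouring homeobox gene Tlx2, and the second held the homeobox gene Lbx2. These regions left a 2.86 kb stretch free of H3K27me3, which began just after the first region's edge 136 bp below the lower end of Pcgf1 and took in all of its 3.30 kb body but the last 0.583 kb. Only 3.18% of protein-coding genes had as high a share of H2AK119ub as Pcgf1, and 3.92% as high a share of H3K27me3. For Bmi1 these figures were 6.26% and 6.70%.

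Pcgf3 and Pcgf5 encode closely related proteins, and both had modest H2AK119ub coverage, 13.7% and 21.7%. Pcgf3, on chromosome 5 from 108461259 to 108506976, had a 2.60 kb H2AK119ub region that ended 559 bp before its start, a 9.14 kb region over its upstream neighbour Mfsd7a, and no H3K27me3. Its 45.7 kb body had 0% coverage by either mark. Pcgf5, on chromosome 19 from 36348329 to 36460970, has 3 annotated start sites. A 14.1 kb H2AK119ub region covered the outermost start, and a 14.6 kb region covered the innermost, 61.4 kb further in. The start between them, 30.7 kb in, was 18.6 kb from the nearest H2AK119ub region. A 3.77 kb H3K27me3 region lay upstream of the outermost Pcgf5 start and stopped 183 bp before it. Pcgf6 on chromosome 19 (47033617 to 47050939, minus strand), whose protein acts with the DNA-binding pair Mga and Max, had a 4.27 kb H2AK119ub region that ended 323 bp before its start. Its other regions lay beyond its 3' end, 20.3 kb of H2AK119ub and 33.6 kb of H3K27me3 over Ina, a neuronal intermediate filament gene, and Nt5c2. The body of Pcgf6 had 0% coverage by either mark.

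Rybp and Kdm2b, the other variant subunit genes, both had wide H2AK119ub nearby, which lay mostly beside the gene at Rybp and mostly within it and upstream of it at Kdm2b, and they differed in H3K27me3. Rybp, which encodes the subunit that replaces Cbx, lies on chromosome 6 from 100228565 to 100287358. The widest region in the group, 158.6 kb of H2AK119ub (100069298 to 100227865, the 131st widest of the list), ended 700 bp below the lower end of Rybp. A further 83.0 kb region began 468 bp above its higher end, and an 8.02 kb region lay inside. H2AK119ub thus covered 96.5% and 97.7% of the lower and higher 20 kb flanks but 13.6% of the body. H3K27me3 covered 43.1% and 39.7% of the flanks and 0% of the body, no nearer than 11.01 kb. None of these regions overlapped another protein-coding gene. Kdm2b, which encodes a demethylase with a zinc finger that binds unmethylated CpG and recruits variant PRC1, lies on chromosome 5 from 122870664 to 122989270 on the minus strand. Its window held 8 H2AK119ub regions of 2.97 to 27.1 kb, which covered 65.0% of it and 69.1% of the body. They covered 91.3% of the upstream 20 kb flank of Kdm2b but 14.4% of the downstream flank. H3K27me3 was absent from the Kdm2b window, and the nearest region was 185 kb from the outermost start.

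Where H3K27me3 was present in a window, nearly all of it there lay inside H2AK119ub. Beyond the window this need not hold: the whole 33.6 kb H3K27me3 region near Pcgf6 was 81.6% under H2AK119ub. In 6 of the 6 genes with H3K27me3 in the window, at least 99% of its bases there were also in an H2AK119ub region, against 40.7% of all protein-coding genes with H3K27me3 in the window. On the autosomes, where all 6 lie, the share was 42.2%. High overlap was usual, since the median over all protein-coding genes with H3K27me3 in the window was 90.4% of its bases. The converse varied. H3K27me3 covered 86.4% of the H2AK119ub length at Pcgf1, 69.0% at Pcgf6, 64.3% at Bmi1, 35.4% at Rybp, 26.2% at Ring1 and 11.4% at Pcgf5. Of these 6 genes, Bmi1 and Pcgf1 had H3K27me3 within the gene body (54.5% and 17.6% of it). Pcgf5 had it only upstream of the start, and at Ring1, Pcgf6 and Rybp it lay 5.62 kb or more from the gene.

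Canonical genes had the higher median coverage for both marks, but the ranges overlapped. The median share of the window under H2AK119ub was 86.5% in the canonical genes (76.2 and 96.9%) and 41.9% in the variant genes (13.7 to 100%), a difference of 44.6 percentage points. For H3K27me3 it was 31.2% in the canonical genes (0 and 62.4%) and 9.62% in the variant genes (0 to 86.4%), a difference of 21.6 points. Pcgf1, a variant gene, exceeded both canonical genes for each mark, and Pcgf2, a canonical gene, had as little H3K27me3 as Pcgf3 and Kdm2b. With 2 canonical genes no test of the difference can be made. Gene length moved with it: the canonical genes span 9.61 and 13.6 kb and the variant genes 3.30 to 118.6 kb, and the part of length in the difference was not tested. Over gene bodies alone the H2AK119ub difference was 81.8 points, with 5 kb on either side 73.1, and with 50 kb 28.7, where the H3K27me3 difference was 10.5.

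**Figure D2:**
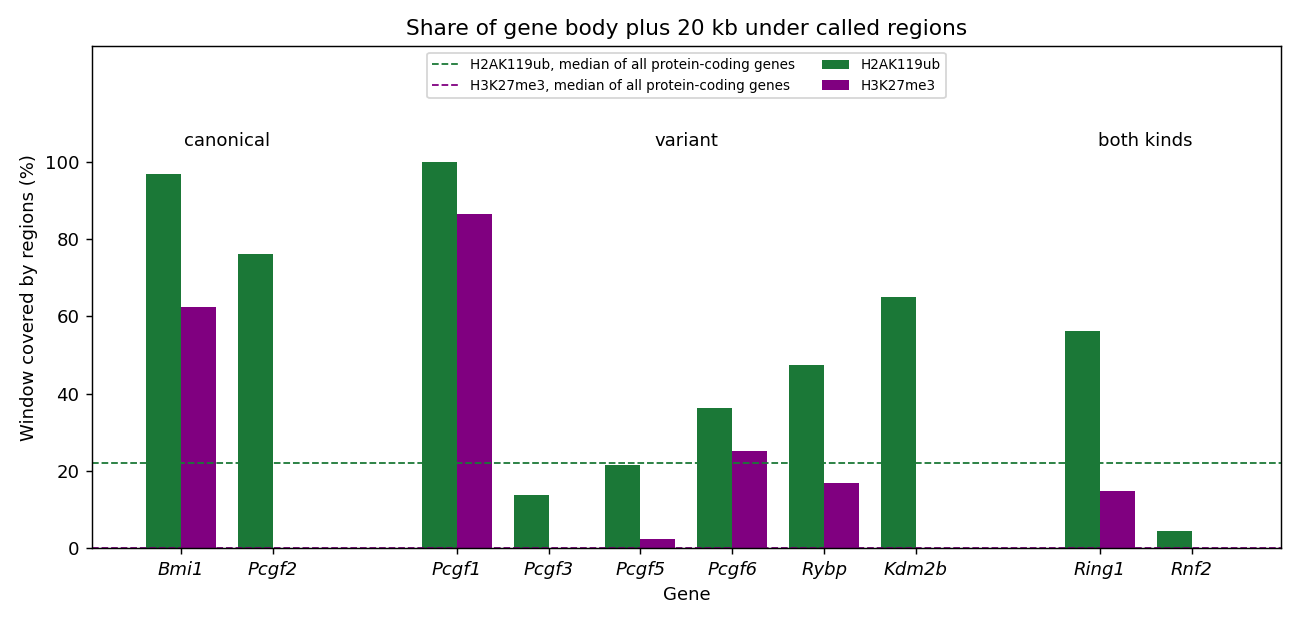
Share of each gene's window (gene body plus 20 kb on either side, in percent) under H2AK119ub regions (green) and H3K27me3 regions (purple), by kind of complex. Dashed lines are the medians of all protein-coding genes, 22.1% and 0%. Pcgf1 (100 and 86.4%) and Bmi1 (96.9 and 62.4%) stand highest, and Rnf2, Pcgf2, Pcgf3 and Kdm2b have H2AK119ub alone.

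H2AK119ub lay over the transcription start or stopped just short of it. Start sites were annotated for 8 of the 10 genes, and Pcgf1 and Rybp are left out of the counts that follow. The only start annotated for Pcgf2, 97699648, lies inside the gene, whose upstream end is 97702434. Both positions lie in its 45.7 kb H2AK119ub region. An H2AK119ub region lay over the outermost start site or within 1 kb of it at 8 of 8 genes, against 50.3% of all protein-coding genes with an annotated start. The start base itself was covered at 3 (Ring1, Pcgf2 and Pcgf5), against 38.3%. At Bmi1 and Kdm2b the start lay in a gap with H2AK119ub within 2 kb on both sides, against 4.43% of all protein-coding genes. At Rnf2, Pcgf3 and Pcgf6 there was a region on the upstream side only, against 6.25%, counted at any width. Among genes with H2AK119ub within 1 kb, the start was uncovered at 5 of 8 in this group and at 23.8% of all such protein-coding genes. The grouping by gaps was defined once the positions at these genes were known.

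The gap at Bmi1 was 1553 bp, from 874 bp before to 680 bp after the start. At Kdm2b it was 1573 bp and held both outer start sites, which lie 0.592 kb apart. Both were near the median of 1334 bp over the 765 protein-coding genes with such a gap (quartiles 1106 and 1649 bp). The inner start sites of Kdm2b, 88.7 kb into the gene, were covered by a 10.6 kb H2AK119ub region. The higher end of Rybp, for which no start was annotated here, also lay in a 1157 bp gap between H2AK119ub regions. The regions upstream of Rnf2, Pcgf3 and Pcgf6 were 3.25, 2.60 and 4.27 kb wide, overlapped no other protein-coding gene, and ended 600, 559 and 323 bp before the start. They were narrow for this list, whose median width is 8.09 kb. A list limited to regions of at least that width kept H2AK119ub within 1 kb of the start at 5 of the 8 genes, against 38% of all protein-coding genes with an annotated start. Of these 5, Ring1, Pcgf2 and Pcgf5 had a covered start, and Bmi1 and Kdm2b had a gap. H3K27me3 covered 0 of the 8 starts, against 19% of all protein-coding genes, and lay within 1 kb of 2 (Bmi1 and Pcgf5), against 21.2%.

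**Figure D3:**
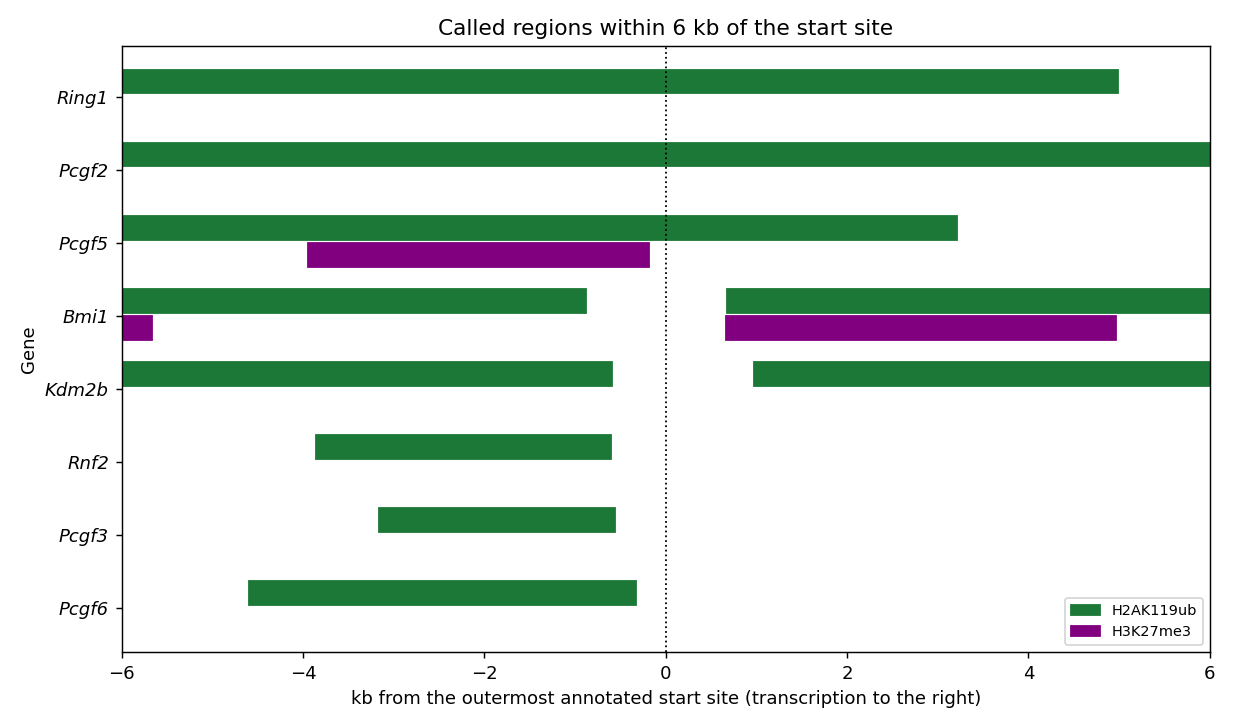
Called regions within 6 kb of the outermost annotated start site (dotted line) of 8 genes, in kb with transcription to the right, H2AK119ub in green above and H3K27me3 in purple below. The upper 3 genes are covered, Bmi1 and Kdm2b have gaps of 1553 and 1573 bp, and Rnf2, Pcgf3 and Pcgf6 have a region on the upstream side only.

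**Figure D4:**
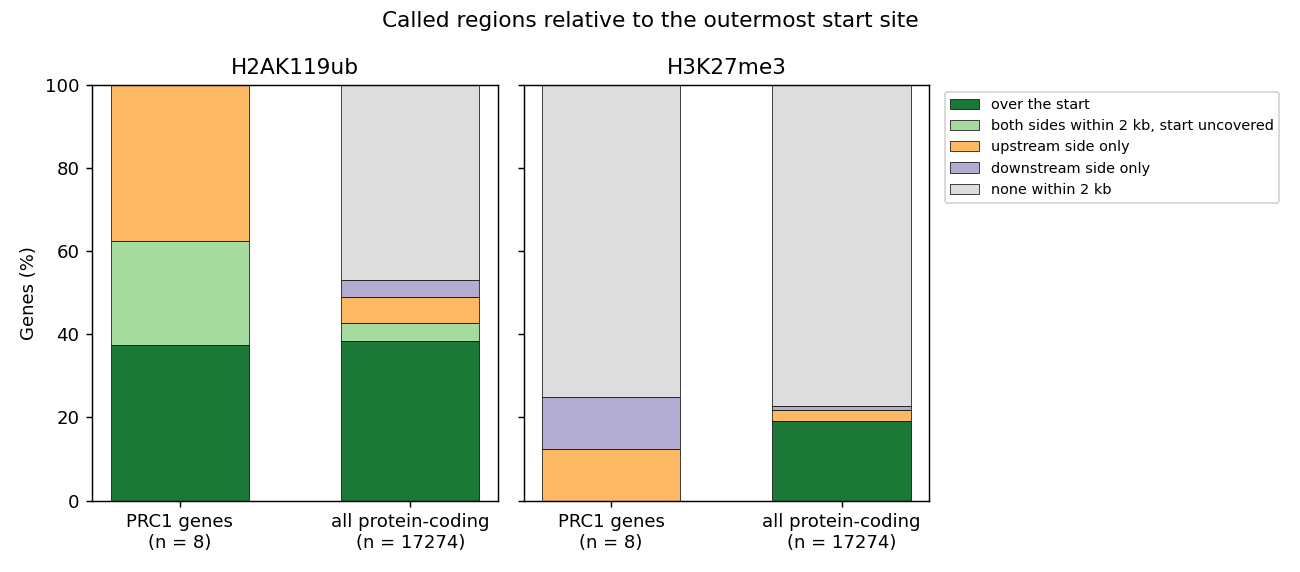
Percent of genes by where the nearest called regions lie relative to the outermost start site, for the 8 PRC1 genes and for 17274 protein-coding genes, with H2AK119ub on the left and H3K27me3 on the right. No PRC1 gene lacks H2AK119ub within 2 kb, against 47% of all protein-coding genes.

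The sequence before these starts was richer in CpG than the median promoter in 7 of the 8 genes. Promoters here are the 300 bases from 250 before to 50 after the start in the RefSeq table of GRCm38.p6, the same assembly as mm10. The ratio of observed to expected CpG had a median of 0.812 over the 8 outermost promoters and 0.586 over all 17274. It was 0.966 at Kdm2b, 0.910 at Ring1, 0.901 at Pcgf6, 0.864 at Pcgf5, 0.761 at Rnf2, 0.737 at Pcgf3 and 0.708 at Bmi1, and 0.362 at Pcgf2. The Pcgf2 value belongs to the annotated start inside the gene, and the sequence at the gene's upstream end was not examined. The 250 bases before the start are shown for 4 genes, because they contrast a covered start (Pcgf2), gaps (Bmi1 and Kdm2b) and an upstream region alone (Rnf2). They run 5′ to 3′ on the gene's strand, and capitals mark CpG, the dinucleotide that the zinc finger of Kdm2b reads.
Bmi1, chr2:18676768-18677017, plus strand: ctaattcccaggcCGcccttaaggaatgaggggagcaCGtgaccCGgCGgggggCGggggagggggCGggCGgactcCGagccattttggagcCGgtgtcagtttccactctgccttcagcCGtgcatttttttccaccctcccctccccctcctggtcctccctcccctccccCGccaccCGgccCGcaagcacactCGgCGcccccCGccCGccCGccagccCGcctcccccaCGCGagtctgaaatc
Pcgf2, chr11:97699649-97699898, minus strand: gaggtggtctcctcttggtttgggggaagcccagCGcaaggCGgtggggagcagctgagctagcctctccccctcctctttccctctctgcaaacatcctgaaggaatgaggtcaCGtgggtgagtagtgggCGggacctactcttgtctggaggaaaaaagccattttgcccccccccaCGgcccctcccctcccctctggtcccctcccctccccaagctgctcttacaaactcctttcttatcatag
Kdm2b, chr5:122989100-122989349, minus strand: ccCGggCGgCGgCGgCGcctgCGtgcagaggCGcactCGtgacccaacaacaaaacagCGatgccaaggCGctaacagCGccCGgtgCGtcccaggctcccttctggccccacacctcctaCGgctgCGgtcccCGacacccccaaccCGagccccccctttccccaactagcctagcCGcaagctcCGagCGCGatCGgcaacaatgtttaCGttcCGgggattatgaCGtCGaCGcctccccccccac
Rnf2, chr1:151500992-151501241, minus strand: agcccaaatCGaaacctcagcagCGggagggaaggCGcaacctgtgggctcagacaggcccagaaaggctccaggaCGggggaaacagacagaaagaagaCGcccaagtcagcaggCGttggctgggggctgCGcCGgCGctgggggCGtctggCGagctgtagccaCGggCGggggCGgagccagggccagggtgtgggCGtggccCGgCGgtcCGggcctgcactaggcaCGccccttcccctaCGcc
They hold 21 CpG at Bmi1, 5 at Pcgf2, 27 at Kdm2b and 20 at Rnf2. The same 250 bases before the other covered outermost starts, not shown, hold 30 at Ring1 and 23 at Pcgf5.

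The covered start of Pcgf2, which lies inside the gene, had the fewest CpG of the 4. The covered starts of Ring1 and Pcgf5 had ratios above the median of all promoters. At the starts used, both canonical genes held CACGTG, the E-box that Max-containing dimers bind. It began 215 bases before the start at Bmi1 and 137 before the internal start at Pcgf2. This motif, which reads the same on both strands, was found in 2 of the 8 outermost promoters and in 8.01% of all 17274. GCGGGAA, a form of the E2F site, was in 0 of the 8 (6.09% of all) and CCGGAAG, a form of the Ets site, in 0 of the 8 (12.1% of all), each searched on both strands. The innermost Pcgf5 promoter, not counted here, held GCGGGAA 167 bases before the start. These matches describe letters and show no binding.

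The rest of the Polycomb machinery was compared through a list of 46 genes. H2AK119ub lay in the window of 40 of them, and H3K27me3 in 29, against 71.8% and 44.5% of all protein-coding genes. The median covered share was 51.9% for H2AK119ub and 8.62% for H3K27me3 in the 10 genes described above, against 43.5% and 4.93% in these 46. By complex, H2AK119ub was in the window at 26 of 27 other PRC1 genes, 11 of 13 PRC2 genes and 3 of 6 H2A deubiquitinase genes, and H3K27me3 at 19, 8 and 2. Coverage by H2AK119ub was 100% at genes that included Cbx2 and Cbx8, chromodomain partners of Bmi1 and Pcgf2 in canonical PRC1, and at the X-linked gene Bcor, a partner of Pcgf1. All 5 X-linked genes of the list (Scml2, Bcor, Bcorl1, Rbbp7 and Ezhip) had H3K27me3, at 84.1% or more of the window. The share of all X-linked genes with H3K27me3 was not computed on its own. It was above the autosomal share, since H3K27me3 lay in 42.5% of autosomal windows and in 44.5% of all windows, X included. A trait of these genes cannot be told apart from one of the chromosome.

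Of the 41 autosomal genes on the list, 24 had H3K27me3 in the window, against 42.5% of all autosomal protein-coding genes, and at 10 it covered 10% or more. Coverage of 10% or more was not rare, since the upper quartile over all protein-coding genes was 13.6%. Among the 10 genes were Cbx6 (63.9%), Cbx8 (55.4%) and Cbx2 (44.3%), and with lower shares E2f6, Epop, Phc1, Scml4, Scmh1 and Dcaf7. In the remaining 14 it covered less than 10%: Phf1, Fbrsl1, Phc2, Ezh1, L3mbtl2, Mga, Auts2, Usp7, Suz12, Cbx7, Rbbp4, Jarid2, Asxl3 and Usp16. The catalytic PRC2 gene Ezh2 and the PRC2 core gene Eed had none. Against these values Bmi1 (62.4%) and Pcgf1 (86.4%) stood with Cbx6, Cbx8 and Cbx2, and Rnf2 (0% H3K27me3, 4.55% H2AK119ub) stood with Ezh2 (0% and 2.17%). Among autosomal genes on both lists, Pcgf1 had the highest H3K27me3 share.

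**Figure D5:**
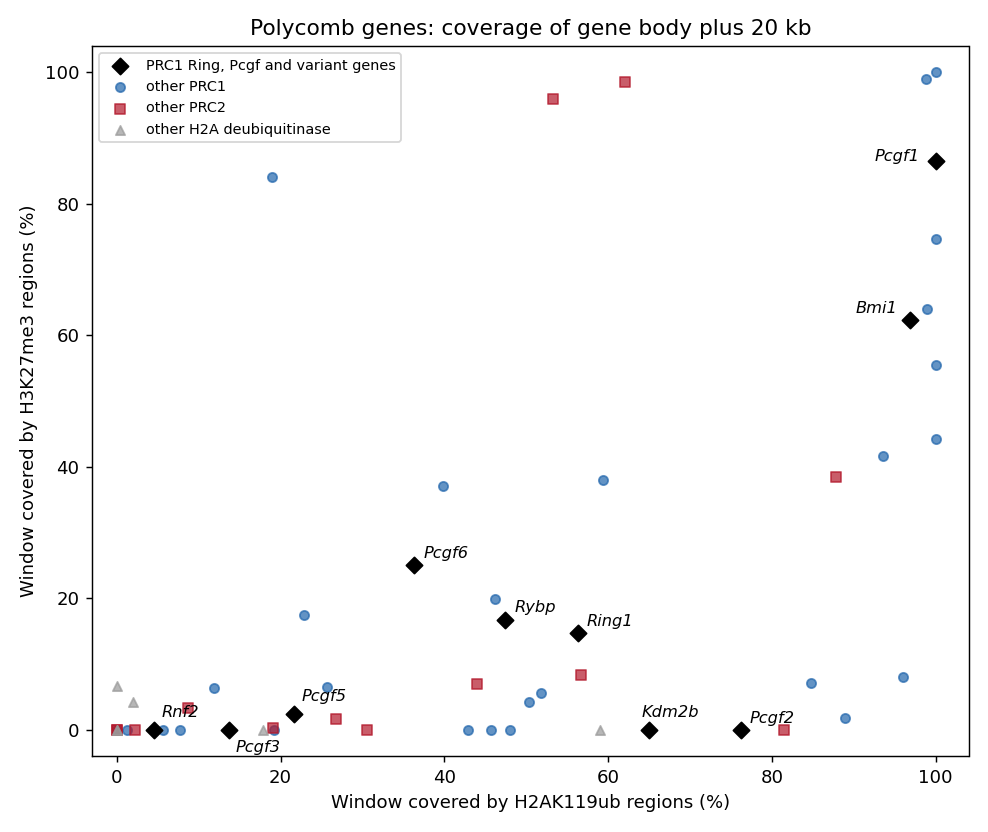
Each point is a Polycomb gene, placed by the share of its window (gene body plus 20 kb, in percent) under H2AK119ub (horizontal) and H3K27me3 (vertical) regions; black diamonds are the 10 PRC1 genes described here. Pcgf1 and Bmi1 sit at the upper right, and Rnf2, Pcgf3 and Pcgf5 at the lower left.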

How the data were processed

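Per the labels' protocols, each ChIP-seq library took 5 ng of purified DNA, and single ends of 75 nt were read. The files are region lists with the columns chr, start and end, per the file headers, as deposited by the authors, and hold no score. The submitters' processing notes name Bowtie2 2.3.3.1, SAMtools 1.9 and mm10, with no role for any of them. Peak caller, threshold, use of the input and pooling of libraries were not given in the sources consulted, and the number, width and gaps of regions depend on them. The input library was not used.

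Starts were read as counted from 0 and shifted by 1. Genes and their ends came from RefSeq GRCm38.p6, on the 20 chromosomes of the lists. Outermost start sites came from the RefSeq promoter table, which held 17274 of 21631 protein-coding genes. Overlap meant at least 1 bp. Median widths and shares were computed with Python 3.11.15, pandas 2.3.3 and NumPy 2.4.6, and the counting was tested on simulated data against a base-by-base recount, with 0 differences in 6000. The named genes are all 10 PRC1 genes, the neighbours under their widest regions, and the genes of the Polycomb list with H3K27me3 or with the highest H2AK119ub coverage; H2-Ke6, Slc39a7, Ezh2 and Eed were named after their values were seen. A gene of the Polycomb list that meets this rule is not reported here. The members and lists were chosen with earlier results of these data known. The planned comparison of protein identity was not made, since no protein table was used here.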

Additional observations from a re-analysis of the deposited data

How the results depend on the processing

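Each mark has 1 list of regions, so leaving out a library could not be tried. No paired analysis was possible because the lists carry no replicate and no result comes from a test. The canonical minus variant difference was positive for both marks in every setting tried. The count of genes with H2AK119ub in the window was 7 to 10 of 10. It was lowest over gene bodies alone, 7 of 10 against 57.2% of all protein-coding genes. The settings below moved the other values, given for H2AK119ub and then for H3K27me3.

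Over gene bodies alone, 57.2% and 25.7% of protein-coding genes had a region, the median covered share of the 10 genes was 42.4% and 0%, and the canonical minus variant difference was 81.8 and 27.3 points. H3K27me3 was then found at 2 of the 10 genes and at 15 other Polycomb genes. With 5 kb on either side the percentages of genes were 64.9% and 32.6%, the medians 45.9% and 0%, and the differences 73.1 and 26.1, and H3K27me3 was found at 3 of the 10. With 50 kb the percentages were 77.4% and 57.2%, the medians 60.1% and 13.2%, and the differences 28.7 and 10.5. When only regions of at least the median width were kept, as no score allows a stricter threshold, the percentages were 59.0% and 28.1%, the medians 43.0% and 0%, and the differences 52.4 and 16.5. Other Polycomb genes with H3K27me3 then numbered 19, and 5 and 0 of the 8 starts had the mark within 1 kb. For H2AK119ub the share over all protein-coding genes with an annotated start was 38%, and for H3K27me3 it was not computed. An overlap of 1000 bp gave 71.1% and 43.7% of genes. Merging regions across 5 kb gave a median of 55.4% for H2AK119ub and differences of 45.6 and 24.8. With only Pcgf genes as variant genes the differences were 57.5 and 17.4. Requiring the start base itself gave 3 and 0 of 8 genes, against 38.3% and 19% of all protein-coding genes with an annotated start. On the autosomes alone 42.5% of genes had H3K27me3. An alternative added after seeing the data kept the widest H2AK119ub regions, as many as in the H3K27me3 list. With these, 57.1% of genes had H2AK119ub, the median was 43.0% and the difference 52.4. The count at starts was 5 of 8, with Rnf2, Pcgf3 and Pcgf6 lost, and the share at starts over all protein-coding genes was not computed. Depth is unknown and no limit of detection can be given.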

Other observations

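Across all protein-coding genes, the promoters whose start lay uncovered beside H2AK119ub were richer in CpG than those it covered. The median ratio of observed to expected CpG was 0.824 over the 765 promoters in a gap between H2AK119ub regions, 0.844 over the 1079 with H2AK119ub on the upstream side only and 0.771 over the 694 with it on the downstream side only. It was 0.603 over the 6620 covered promoters and 0.365 over the 8116 without H2AK119ub within 2 kb. For H3K27me3 the uncovered promoters did not share this order. The median was 0.750 over 426 promoters with the mark on the upstream side only, but 0.513 over 195 with it on the downstream side only and 0.534 over 37 in a gap, beside 0.559 over 3290 covered promoters and 0.588 over 13326 without the mark. The PRC1 genes themselves did not show the H2AK119ub order. The 5 with an uncovered start (Bmi1, Kdm2b, Rnf2, Pcgf3 and Pcgf6) had a median of 0.761 and a range of 0.708 to 0.966, and the 3 with a covered start (Ring1, Pcgf5 and Pcgf2) had a median of 0.864 and a range of 0.362 to 0.910. The lowest value, 0.362, is that of the Pcgf2 start, which lies inside the gene. These are medians over genes of 2 lists, without a test, and the relation was looked for after the values at the PRC1 genes had been seen.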
